A study of Mus musculus with 12 samples.

Results

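The Bcl2 family of cell death regulators was followed through 4 stages of mouse spermatogenesis by 10 genes chosen by name: the pro-survival members Bcl2, Bcl2l1, Bcl2l2 and Mcl1, the effectors Bax and Bak1, the BH3-only members Bid, Bcl2l11 and Bbc3, and Bcl2l14. They are 10 of the 22552 gene symbols in the germ cell files, and each was listed once in all 8 libraries. The libraries were total RNA of testicular germ cells of male F1 mice of DBA/2 and C57BL6, separated by size with the STAPUT sedimentation method and not otherwise treated. Primitive type A spermatogonia (priSG-A) came from mice of 7 days postpartum, while both preleptotene spermatocytes (plpSC, on the verge of meiosis) and pachytene spermatocytes (pacSC, in meiotic prophase) came from mice of 17 days. Round spermatids (rST, the haploid products of meiosis) came from mice of 60 days, and each stage had 2 libraries. Age and stage cannot be told apart except between plpSC and pacSC, and the labels do not say whether the libraries of a stage came from separate animals, so p-values measure only the spread between these libraries. A further 4 libraries of spermatogonial stem cells (SSCs) cultured from pups of 5 days, 2 of them treated with RNase R (which degrades linear but spares circular RNA), gave lists of circular RNAs.

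Members of this family decide whether the outer mitochondrial membrane is permeabilised, the committing step of the intrinsic route of apoptosis. Bax and Bak1 form the pores, the pro-survival proteins bind and restrain them, and BH3-only proteins, named for the single homology domain they share with the rest, release that restraint or activate the effectors directly. In the testis, this machinery is known for removing surplus germ cells in the first wave of spermatogenesis, where mice without Bax accumulate spermatogonia and become infertile.

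Levels are FPKM (fragments per kilobase of transcript, scaled to the size of the library), which accounts for transcript length, so levels of different genes can be set side by side. Confidence bounds on either side of each value were deposited with it. Taking the distance to a bound as 2 SD of the counts puts depth at between 23520448 and 34923958 fragments per library. Of the 40 pairs of replicates (10 members in 4 stages), 17 had bounds that did not overlap, 9 of them in plpSC, so counting error alone does not describe the spread in that stage. In plpSC, replicate 1 was the higher one for Bcl2l1, Bcl2l14 and Bak1 and replicate 2 for the other 7 members. The marker lists of pachytene spermatocytes and round spermatids were higher in plpSC replicate 1 (summed FPKM 3179 and 1338) than in replicate 2 (1423 and 537), and 5 lists of other cells were lower in it: Sertoli cells (184 against 286), peritubular and stromal cells (181 against 595), erythroid cells (224 against 441), macrophages (39.1 against 65.4) and endothelial cells (6.64 against 10.2). The stromal and erythroid sums were higher in both plpSC libraries than in any library of another stage. In pacSC, replicate 2 stood apart with a summed round spermatid level of 5368 against 565 in replicate 1 and a summed Leydig cell level of 862 against 44.4. An FPKM of 1 or more in both libraries was found for 11 of 12 markers of undifferentiated spermatogonia in priSG-A, for all 10 pachytene markers of the files in pacSC and for all 11 round spermatid markers in rST. In plpSC, pacSC and rST alike, both the pachytene and the spermatid lists reached it in full, so these counts do not tell those stages apart. The summed pachytene level was 3231 and 3143 in rST, near the 3706 and 3085 of pacSC. The 3179 of plpSC replicate 1 lay between the values of pacSC. The list of differentiating spermatogonia and meiotic entry summed to 297 and 259 in plpSC, below the 396 and 362 of priSG-A. Of its genes, Stra8 was at 43.9 and 100 in plpSC against 166 and 145 in priSG-A, while Dmrtb1 and Rec8 were higher in plpSC. Whether the plpSC fraction was mostly preleptotene cells was not tested. In priSG-A all 11 Sertoli cell genes reached an FPKM of 1 in both libraries.

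The members took different courses. Bax, Bid, Bcl2l2 and Bcl2l11 were highest in priSG-A and fell at the first 2 steps. For Bid, Bcl2l2 and Bcl2l11 the call of the second fall was lost under most of the alternatives given below. Bcl2l14 went from near the floor in priSG-A to the highest level of any member in rST, and Mcl1 was lower in every later stage than in priSG-A. Bcl2l1 (8.78 to 16.5 FPKM) and Bak1 (2.12 to 4.77) were highest in pacSC, with no change called in the fit described next. Bcl2 and Bbc3 stayed at or below an FPKM of 1.06 in every library. Changes were tested with limma on log2(FPKM + 1) in 1 fit over the 14111 genes that reached an FPKM of 1 in 2 or more libraries. A change was called where its p, adjusted over these genes by the Benjamini-Hochberg method, was under 0.05. This covered 8 of the 10 members; Bcl2 and Bbc3 were below the filter. Bcl2l11 met it through both priSG-A libraries and plpSC replicate 2 only, so its place among the tested genes rests on the stages where it is high. An F test over the 4 stages called 6 of the 8 tested members (all but Bcl2l1 and Bak1), against 88.5% of all genes tested. With quantile normalization or a weight per stage it called all 8, beside 12621 and 13321 of the 14111 genes.

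**Figure D1:**
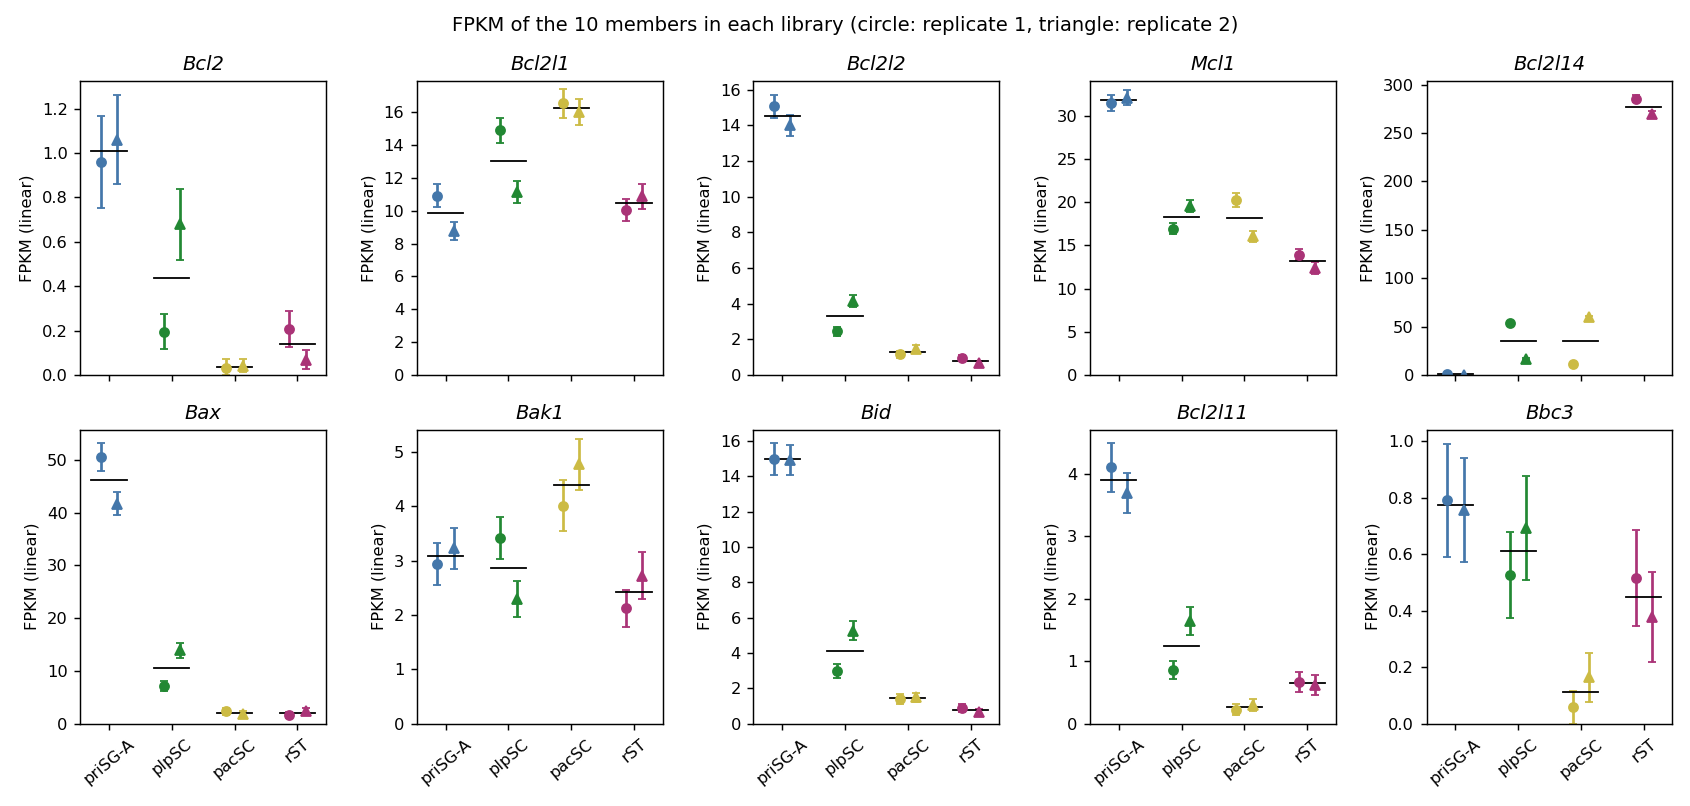
FPKM (linear axes from 0) of the 10 members in each of the 8 libraries, by stage, with the deposited confidence bounds as error bars and the mean of the 2 libraries as a line. Bcl2l14 is highest in rST (285 and 269), Bax, Bid and Bcl2l2 are highest in priSG-A, and the pacSC libraries hold the most Bcl2l1. Circles are replicate 1 and triangles replicate 2.

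The RefSeq sequences before the annotated starts (build GRCm38.p6) of 5 members are shown, because Bcl2l14 and the group of Bax, Bid, Bcl2l2 and Bcl2l11 changed in opposite directions. Each is the 250 bases before a start, 5′ to 3′ on the strand of the gene, with GC boxes (GGGCGG) and CCAAT boxes (CCAAT), on either strand, in capitals. The starts are annotated ones, and which of them these cells use was not measured. Bcl2l14 and Bcl2l11 each have an upstream and a downstream start in the table.
Bcl2l14, upstream start, chr6:134396079-134396328, plus strand: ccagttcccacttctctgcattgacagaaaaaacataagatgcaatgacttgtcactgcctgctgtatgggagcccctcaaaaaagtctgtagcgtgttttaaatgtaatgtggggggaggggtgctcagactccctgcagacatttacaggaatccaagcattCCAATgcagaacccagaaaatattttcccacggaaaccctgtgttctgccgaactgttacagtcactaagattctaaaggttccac
Bcl2l14, downstream start, chr6:134414178-134414427, plus strand: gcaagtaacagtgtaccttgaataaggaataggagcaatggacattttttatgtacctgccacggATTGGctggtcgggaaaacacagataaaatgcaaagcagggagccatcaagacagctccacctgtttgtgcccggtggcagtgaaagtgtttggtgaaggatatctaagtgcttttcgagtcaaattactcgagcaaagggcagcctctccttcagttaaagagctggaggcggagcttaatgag
Bax, chr7:45466899-45467148, minus strand: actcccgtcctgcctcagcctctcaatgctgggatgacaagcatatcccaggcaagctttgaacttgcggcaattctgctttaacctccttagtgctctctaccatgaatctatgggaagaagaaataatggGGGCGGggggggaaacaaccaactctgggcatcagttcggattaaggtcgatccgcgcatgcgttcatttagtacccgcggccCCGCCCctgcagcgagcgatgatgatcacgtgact
Bid, chr6:120916825-120917074, minus strand: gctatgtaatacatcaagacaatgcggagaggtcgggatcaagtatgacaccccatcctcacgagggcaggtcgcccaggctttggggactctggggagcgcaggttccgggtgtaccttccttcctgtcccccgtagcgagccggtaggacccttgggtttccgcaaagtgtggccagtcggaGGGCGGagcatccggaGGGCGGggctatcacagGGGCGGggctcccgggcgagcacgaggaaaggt
Bcl2l2, chr14:54883175-54883424, plus strand: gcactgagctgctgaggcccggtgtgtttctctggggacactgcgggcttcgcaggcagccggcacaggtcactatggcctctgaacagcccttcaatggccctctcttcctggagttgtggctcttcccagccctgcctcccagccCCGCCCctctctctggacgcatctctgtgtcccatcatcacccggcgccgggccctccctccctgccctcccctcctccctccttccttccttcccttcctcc
Bcl2l11, upstream start, chr2:128125788-128126037, plus strand: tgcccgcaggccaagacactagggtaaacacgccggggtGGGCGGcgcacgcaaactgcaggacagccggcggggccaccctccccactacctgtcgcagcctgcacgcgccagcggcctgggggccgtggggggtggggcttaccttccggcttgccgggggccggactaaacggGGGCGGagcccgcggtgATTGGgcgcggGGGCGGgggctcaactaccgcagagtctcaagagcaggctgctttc
Bcl2l11, downstream start, chr2:128127325-128127574, plus strand: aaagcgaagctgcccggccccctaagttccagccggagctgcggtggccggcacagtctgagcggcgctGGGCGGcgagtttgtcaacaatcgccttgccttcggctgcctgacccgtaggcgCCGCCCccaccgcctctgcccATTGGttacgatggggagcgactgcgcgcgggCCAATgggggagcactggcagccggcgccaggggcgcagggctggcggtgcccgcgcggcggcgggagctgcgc
All 10 members had at least 1 entry in the promoter table. The Bax window held 2 GC boxes, the Bid window 3, the Bcl2l2 window 1 and the Bcl2l11 windows 3 and 2, while neither Bcl2l14 window held any. Nor did any window of Bcl2l1 or Bak1, which had no called change, so a lack of GC boxes is not particular to Bcl2l14. CCAAT boxes did not separate the genes by direction: each Bcl2l14 window held 1, the Bcl2l11 windows held 1 and 2, and those of Bax, Bid and Bcl2l2 held none. Of 32851 promoter windows of the same length, 32.7% held a GC box and 33.8% a CCAAT box, so matches of either kind are common. G and C made up 45.6% and 46.8% of the Bcl2l14 windows, 54.0% of the Bax window, 63.6% of the Bid window, 66.0% of the Bcl2l2 window and 72.0% and 73.2% of the Bcl2l11 windows. The MYB core (AACNG) was found 3 times in each Bcl2l14 window, with 2 matches overlapping in the upstream one, once each in the Bax and Bcl2l2 windows, 2 times in the upstream Bcl2l11 window and in neither the Bid nor the downstream Bcl2l11 window. It was also found 3 times in 1 of the windows of Bcl2l1, which had no called change, and 74.2% of all windows hold it. The full cAMP response element (TGACGTCA, in 1.55% of all windows) was in none of the 7.

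Bcl2l1, the gene of Bcl-xL, and Mcl1, a short-lived protein that restrains Bak1, were the pro-survival members with the highest levels in the later stages. Bcl2l1 (mm9, chr2:152606403-152657418 in the authors' file) stood at an FPKM of 10.9 and 8.78 in priSG-A, then 14.9 and 11.2 (plpSC), 16.5 and 16.0 (pacSC) and 10.04 and 10.9 (rST). Both pacSC libraries were above all others, and the rST and priSG-A libraries overlapped. From priSG-A to plpSC it differed by 0.36 ± 0.22 (log2 scale, SE; limma adjusted p = 0.172), from plpSC to pacSC by 0.31 ± 0.22 (limma adjusted p = 0.322) and from pacSC to rST by -0.59 ± 0.22 (limma adjusted p = 0.0705), none of which was called. The first was called without plpSC replicate 2 (limma adjusted p = 0.0286, in a range up to 0.59 over the alternatives). The last was called under 4 of 15 alternatives, among them leaving out either plpSC library (limma adjusted p = 0.0176 in both cases, in a range up to 0.278). After centring each library on its median, the difference from priSG-A to rST was 0.73 and called (limma adjusted p = 0.0324), against 0.08 on the scale of the files.

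Mcl1 (mm9, chr3:95462642-95467101) was at an FPKM of 31.4 and 32.1 in priSG-A, then 16.9 and 19.5 (plpSC), 20.2 and 16.04 (pacSC) and 13.9 and 12.4 (rST). The priSG-A libraries were above all others and the rST libraries below all others, while those of plpSC and pacSC overlapped. It fell by 0.77 ± 0.20 (SE) on the log2 scale from priSG-A to plpSC (limma adjusted p = 0.0116), from a mean of 31.8 ± 0.437 to 18.2 ± 1.84 FPKM (SD, n = 2), and by 1.21 ± 0.20 from priSG-A to rST (limma adjusted p = 0.000739). The differences from plpSC to pacSC (-0.01 ± 0.20, limma adjusted p = 0.969) and from pacSC to rST (-0.43 ± 0.20, limma adjusted p = 0.146) were not called, and the first of these changed sign under quantile normalization, under median centring and without plpSC replicate 2 (0.085) or pacSC replicate 2 (0.15). Both falls are larger than the median of all genes tested, which was -0.35 at the first step and -0.76 from priSG-A to rST. After median centring they were -0.59 and -0.57 and not called (limma adjusted p = 0.067 and 0.0634, the latter the highest of its 15 alternatives), and the fall at the first step was not called without either priSG-A library (limma adjusted p = 0.0824 and 0.0892, in a range from 0.00483). By FPKM, Mcl1 was among the first 2 of the 10 members in all 8 libraries.

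Bcl2l2, the gene of Bcl-w, whose loss in mice is known to cause late degeneration of the testis, fell steeply (mm9, chr14:55502261-55507071). Its FPKM was 15.1 and 14.0 in priSG-A, then 2.46 and 4.16 (plpSC), 1.16 and 1.48 (pacSC) and 0.950 and 0.662 (rST). The libraries of the 4 stages did not overlap, each stage lying below the one before it. The mean went from 14.5 ± 0.760 in priSG-A to 3.31 ± 1.20 in plpSC (SD, n = 2), a log2 change of -1.88 ± 0.24 (SE; limma adjusted p = 0.000572). The next step, to 1.32 ± 0.229 in pacSC, was called at the margin (-0.87 ± 0.24; limma adjusted p = 0.0374), and 13 of the 15 alternatives ended that call, with adjusted p up to 0.307. The step to rST was not called (limma adjusted p = 0.296). From priSG-A to rST, Bcl2l2 fell by 3.11 ± 0.24 on the log2 scale (limma adjusted p = 3.54e-05), 18.0-fold by mean FPKM, under all 15 alternatives as well.

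Bcl2, after which the family is named, was near the floor (mm9, chr1:108434755-108610867). It was at an FPKM of 0.961 and 1.06 in priSG-A, then 0.196 and 0.678 (plpSC), 0.0327 and 0.0418 (pacSC) and 0.208 and 0.0693 (rST). The pacSC values rest on an estimated 2.8 and 8.5 fragments. The priSG-A libraries lay above all others. With no filter on low values, limma called the difference between priSG-A and plpSC (-0.50 ± 0.15 SE, adjusted p = 0.035) and that between priSG-A and rST (-0.82 ± 0.15, adjusted p = 0.00318), on a scale that understates the change of genes this low. Of the 5 other pro-survival genes of the family (Bcl2a1a, Bcl2a1b, Bcl2a1c, Bcl2a1d and Bcl2l10), none reached an FPKM of 1 in any library, and the Bcl2a1 copies are near identical, so their reads may not be told apart.

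Bax, the effector that moves from the cytosol to mitochondria, showed the largest fall of the tested members from priSG-A to rST (mm9, chr7:52717064-52722268). Its FPKM was 50.6 and 41.7 in priSG-A, then 7.12 and 13.9 (plpSC), 2.32 and 1.87 (pacSC) and 1.64 and 2.30 (rST). The priSG-A libraries were far above the rest, plpSC lay between, and pacSC and rST overlapped. The mean went from 46.2 ± 6.24 to 10.5 ± 4.77 (SD, n = 2; log2 change -2.09 ± 0.31 SE, limma adjusted p = 0.00105) and on to 2.09 ± 0.316 in pacSC (-1.83 ± 0.31, limma adjusted p = 0.0109). The second fall lost its call when each stage was given its own weight (limma adjusted p = 0.0826, the highest of 15 alternatives, whose lowest was 0.00145). From pacSC to rST the difference was -0.06 ± 0.31 (limma adjusted p = 0.903) and changed sign without pacSC replicate 1 or rST replicate 1. The total from priSG-A to rST was a log2 change of -3.99 ± 0.31 (limma adjusted p = 3.54e-05), a ratio of mean FPKM of 23.4, and it was called under all 15 alternatives.

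Bak1, the other effector, which sits in the mitochondrial membrane, had no called change (mm9, chr17:27156756-27165571). It was at an FPKM of 2.94 and 3.23 in priSG-A, then 3.42 and 2.29 (plpSC), 4.02 and 4.77 (pacSC) and 2.12 and 2.72 (rST). The pacSC libraries were above all others, those of plpSC overlapped both priSG-A and rST, and those of rST were below those of priSG-A. The differences were -0.10 ± 0.22, 0.50 ± 0.22 and -0.66 ± 0.22 (log2, SE) over the 3 steps (limma adjusted p = 0.717, 0.141 and 0.0554), none of them called, and the first changed sign under quantile normalization, under median centring and without plpSC replicate 2. The second was called without plpSC replicate 1 (limma adjusted p = 0.0209) and after median centring, in a range up to 0.453. The last was called under 4 of 15 alternatives, among them leaving out either plpSC library (limma adjusted p = 0.0137 and 0.0139, in a range up to 0.289). The ratio of Bax to Bak1 within a library was 17.2 and 12.9 in priSG-A, then 2.08 and 6.06 (plpSC), 0.577 and 0.392 (pacSC) and 0.773 and 0.846 (rST). Bax was thus above Bak1 in both spermatogonial and both preleptotene libraries and below it in all 4 later ones. Bax to Bcl2l1 likewise stood at 4.63 and 4.76 in priSG-A and at 0.140 and 0.117 in pacSC. These ratios are unaffected by a single scaling factor per library, but quantile normalization or median centring of log2(FPKM + 1) can change them.

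**Figure D2:**
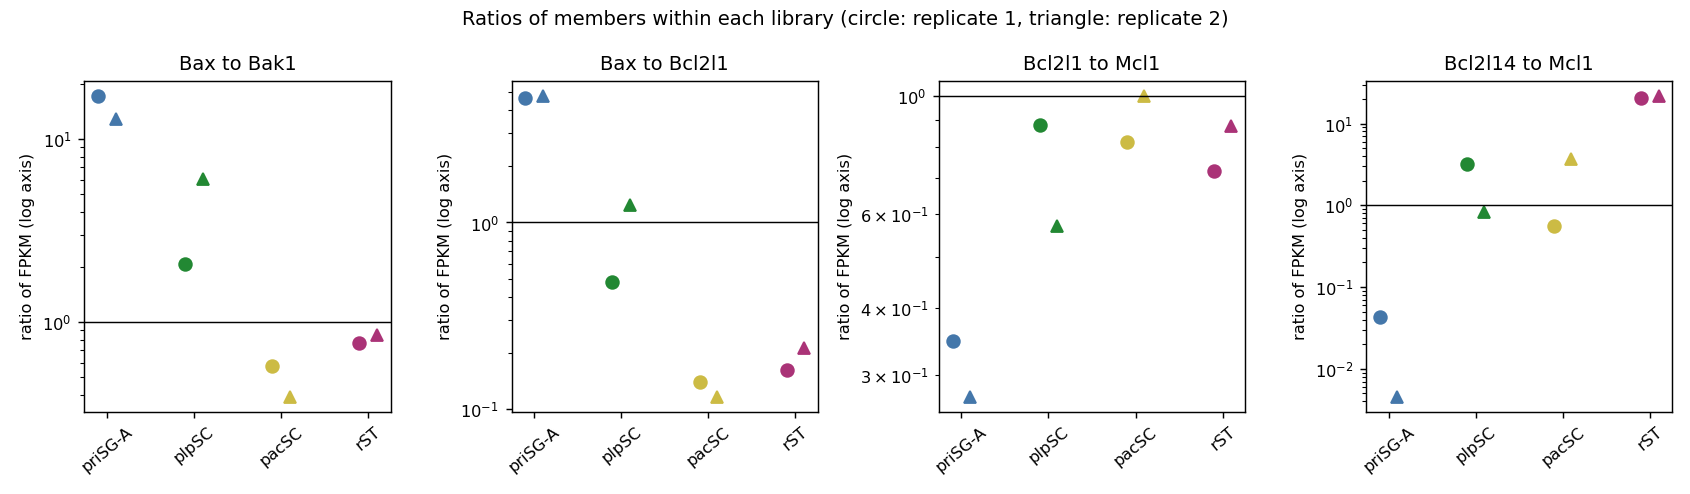
Ratio of the FPKM of 2 members within each library (log axes), by stage; the line marks a ratio of 1. Bax to Bak1 is 17.2 and 12.9 in priSG-A and under 1 in pacSC and rST, and Bcl2l14 to Mcl1 is 20.5 and 21.7 in rST. Circles are replicate 1 and triangles replicate 2.

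Bid, a BH3-only protein that caspase cleavage activates and that links death receptors to mitochondria, fell at the same 2 steps as Bax (mm9, chr6:120843136-120866838). Its FPKM was 14.97 and 14.9 in priSG-A, then 2.98 and 5.26 (plpSC), 1.41 and 1.49 (pacSC) and 0.880 and 0.631 (rST). Libraries of different stages did not overlap. The fall was -1.68 ± 0.25 (log2, SE) to plpSC (limma adjusted p = 0.00103) and -1.03 ± 0.25 to pacSC (limma adjusted p = 0.0251). The latter call ended under 10 of the 15 alternatives (adjusted p up to 0.154). From pacSC to rST the difference of -0.48 ± 0.25 was not called (limma adjusted p = 0.178), and was called without plpSC replicate 1 or 2 (limma adjusted p = 0.0208 and 0.0202, in a range up to 0.551) and with only the 4 libraries of these stages. The change from priSG-A to rST was -3.19 ± 0.25 (limma adjusted p = 3.54e-05), 19.8-fold lower by mean FPKM, and was called under all 15 alternatives.

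Bcl2l11, the gene of Bim, a BH3-only protein that binds all pro-survival members, was at an FPKM of 4.11 and 3.70 in priSG-A, then 0.853 and 1.64 (plpSC), 0.224 and 0.295 (pacSC) and 0.669 and 0.618 (rST) (mm9, chr2:127951773-127988283). The pacSC libraries were the lowest and those of rST lay between pacSC and plpSC. It fell at the first step (log2 change -1.15 ± 0.19 SE, limma adjusted p = 0.00176) and at the second (-0.81 ± 0.19, limma adjusted p = 0.024), where 9 of 14 alternatives ended the call (adjusted p up to 0.122). The difference of 0.38 ± 0.19 from pacSC to rST was not called (limma adjusted p = 0.169), and was called without either plpSC library (limma adjusted p = 0.0189 and 0.0176, in a range up to 0.428). Between priSG-A and rST the fall was 6.06-fold by mean FPKM (-1.58 ± 0.19, limma adjusted p = 0.00015) and was called under all 15 alternatives.

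Bbc3, the gene of Puma, a BH3-only protein induced by p53, was low throughout (mm9, chr7:16894931-16903683). It stood at an FPKM of 0.791 and 0.757 in priSG-A, then 0.527 and 0.693 (plpSC), 0.0572 and 0.164 (pacSC) and 0.517 and 0.378 (rST). Here too the pacSC libraries were the lowest, on an estimated 4 and 14 fragments. With no filter, limma called its difference from plpSC to pacSC (-0.54 ± 0.09 SE, adjusted p = 0.025) and that from pacSC to rST (0.38 ± 0.09, adjusted p = 0.027), and also that from priSG-A to rST (-0.30 ± 0.09, adjusted p = 0.023).

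Bcl2l14, the gene of Bcl-G, a family member whose part in cell death is not settled and whose RNA is known from the testis, was the 1 tested member with a called rise (mm9, chr6:134346346-134388742). Its FPKM was 1.34 and 0.147 in priSG-A, then 53.6 and 16.4 (plpSC), 11.4 and 59.5 (pacSC) and 285 and 269 (rST). The priSG-A libraries were below and the rST libraries above all others, and those of plpSC and pacSC overlapped, with a 3.27-fold and a 5.20-fold difference between replicates. It rose from priSG-A to plpSC by 4.23 ± 0.79 (log2, SE; limma adjusted p = 0.00271) and from pacSC to rST by 3.34 ± 0.79 (limma adjusted p = 0.0161). The latter call was lost without pacSC replicate 1, where the change was 2.20 (limma adjusted p = 0.0826), and without either rST library (limma adjusted p = 0.078 and 0.0961), in a range from 0.00653. From plpSC to pacSC the difference was -0.17 ± 0.79 (limma adjusted p = 0.894), and it changed sign without plpSC replicate 1 (0.66) or pacSC replicate 1 (0.97) and under quantile normalization and median centring. From priSG-A to rST the change was 7.41 ± 0.79 (limma adjusted p = 8.09e-05), called under all 15 alternatives. In rST, Bcl2l14 made up 90.2% and 89.8% of the summed FPKM of the 10 members, against 1.00% and 0.122% in priSG-A, where Bax was first with 38.0% and 34.7%.

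Within stages, the order of the replicates by Bcl2l14 was also that of several marker lists. The summed FPKM of the 11 round spermatid genes was 155 and 24.2 in priSG-A, then 1338 and 537 (plpSC), 565 and 5368 (pacSC) and 33713 and 38653 (rST), none of the 11 being at 0 in any stage. In each of the first 3 stages the library with the higher sum had the higher Bcl2l14 level, and in rST, where replicates differed 1.06-fold in Bcl2l14, the one with the lower sum did. The pachytene list ordered the replicates as Bcl2l14 did in 3 of the 4 stages, all but pacSC (3706 and 3085). The 7 Leydig cell genes did so in all 4 stages, with sums of 270 and 211 (priSG-A), 94.5 and 88.8 (plpSC), 44.4 and 862 (pacSC) and 104 and 91.2 (rST). The list of differentiating spermatogonia and meiotic entry did so in all stages but pacSC and the erythroid list in all but plpSC. The lists of undifferentiated spermatogonia, Sertoli, stromal, macrophage and endothelial cells did so in fewer stages. The part that RNA of other cells has in the priSG-A, plpSC and pacSC values of Bcl2l14 was not tested. Bax, Bid, Bcl2l2 and Bcl2l11 shared their highest stage, priSG-A, with Sertoli cell markers. The summed FPKM of the 11 Sertoli cell genes in the files (of 12 listed) was 1870 and 1961 in priSG-A, then 184 and 286 (plpSC), 106 and 122 (pacSC) and 37.8 and 26.4 (rST), again with none at 0 in both libraries of a stage. Within priSG-A, Bax, Bid, Bcl2l2 and Bcl2l11 were all higher in replicate 1 and the Sertoli sum in replicate 2. In plpSC all were higher in replicate 2. In pacSC and rST, Bid, Bcl2l2 and Bcl2l11 ordered the replicates as the Sertoli sum did, and Bax did not. Genes of undifferentiated spermatogonia were also highest in priSG-A, with a sum of 166 and 156 in priSG-A against 21.4 and 26.9 (plpSC), 36.2 and 33.5 (pacSC) and 13.7 and 10.6 (rST). Most of the pacSC sum was 1 gene, Id4, at an FPKM of 30.4 and 26.8 there against 6.05 and 5.25 in priSG-A. The list of differentiating spermatogonia and meiotic entry (396 and 362) also had its highest sum in priSG-A, against 297 and 259 in plpSC. So did the list of endothelial cells (14.3 and 16.5). Which cells of the priSG-A fraction carried the Bax, Bid, Bcl2l2 and Bcl2l11 RNA was not tested, and in bulk RNA fewer cells of a type and less RNA per cell cannot be told apart.

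**Figure D3:**
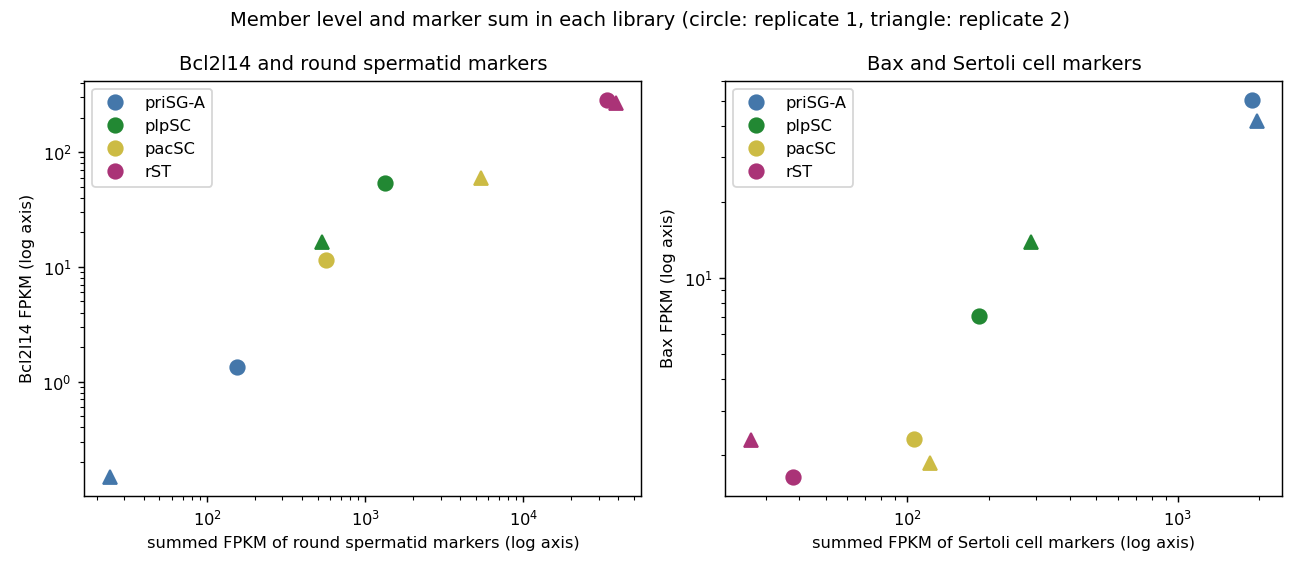
FPKM of Bcl2l14 against the summed FPKM of 11 round spermatid markers (left) and of Bax against that of 11 Sertoli cell markers (right), 1 point per library, log axes. Within priSG-A, plpSC and pacSC the library with more spermatid marker RNA has more Bcl2l14, and the priSG-A libraries hold the most Bax and the most Sertoli marker RNA. Circles are replicate 1 and triangles replicate 2.

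Set against all genes, calls were frequent at the first step. From priSG-A to plpSC, 6 of 8 members were called (65.7% of all genes tested were), 5 of them lower (41.3%) and 1 higher (24.4%). From plpSC to pacSC, 4 were called (25.8%), all 4 of them lower (21.6%) and none higher by limma (0 of 8, against 4.22%). None was higher at an unadjusted limma p under 0.05 either, a threshold at which the share of all genes was not computed. With a weight per stage, 0 members were called in either direction at this step, and among all 14111 genes 0 were called higher and 1 lower. From pacSC to rST, 1 was called (34.4%), Bcl2l14, which was higher (17.7%), and none lower by limma (16.7%). At an unadjusted limma p under 0.05, 2 were lower, again with no share of all genes computed. The Bcl2l14 call at that step was lost without pacSC replicate 1 or either rST library. Without rST replicate 2, that step had 0 genes called higher and 1 lower by limma among all tested. The 4 falls from plpSC to pacSC became 1 when any single library of priSG-A, pacSC or rST was left out. From priSG-A to rST, 6 were called (83%), 5 lower (53.6%) and 1 higher (29.5%). The median log2 difference of all 10 members was -0.64, -0.49, -0.21 and -1.02 in these 4 comparisons, and that of all genes tested -0.35, -0.25, -0.03 and -0.76. These sets are unlike, since the 10 members include Bcl2 and Bbc3, which are below the filter that all genes tested passed. After quantile normalization the medians of all genes were -0.35, 0.03, -0.13 and -0.48, and after median centring -0.17, 0.15, 0.03 and -0.11. The split of calls over all genes from plpSC to pacSC changed with the scale: 16.3% of them were higher on the scale of the files, 53.4% after quantile normalization and 52.3% after median centring, with 1 member called lower after either and, after median centring, Bak1 called higher. From priSG-A to rST the share was 35.5%, and 48.0% after median centring.

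**Figure D4:**
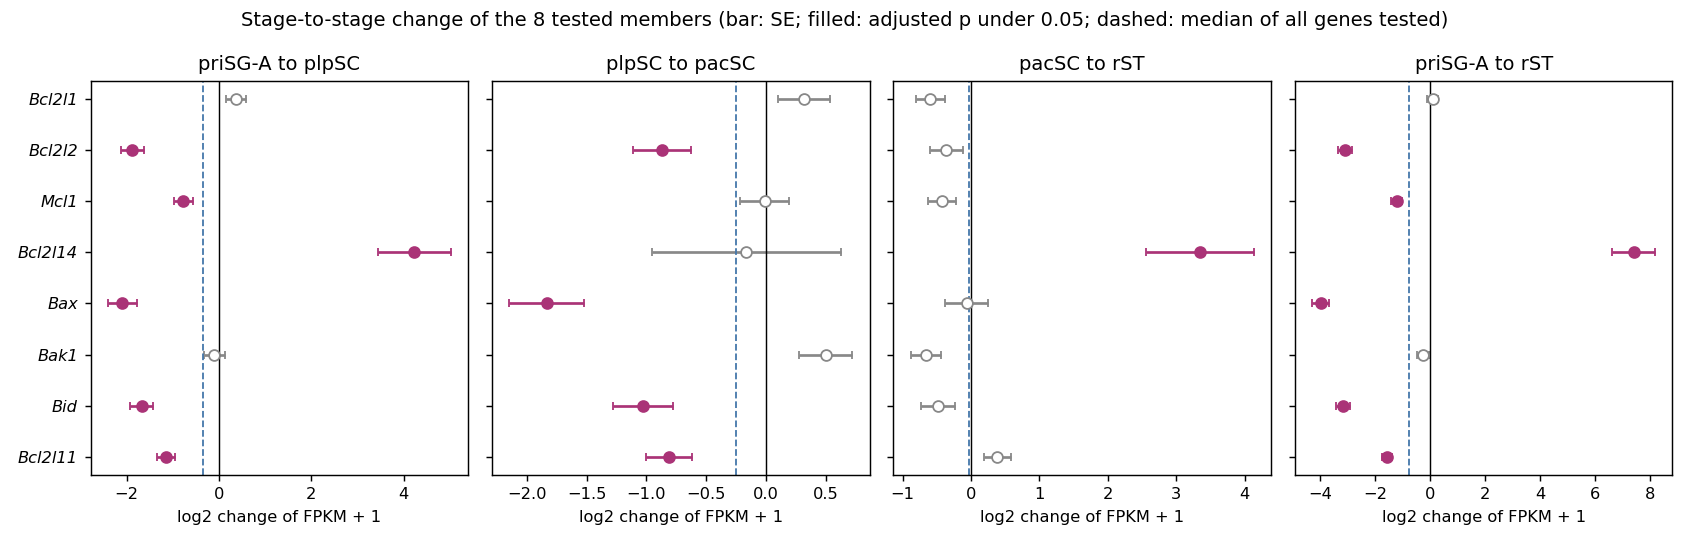
Log2 change of FPKM + 1 with its SE for the 8 tested members in 4 comparisons; filled points have an adjusted p under 0.05, and the dashed line is the median of all genes tested. Bcl2l2, Bax, Bid and Bcl2l11 lie left of that median at the first 2 steps and Bcl2l14 far right of it at the first and the third.

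The genes whose pattern over the 8 libraries was most like that of each tested member were sought among 8520 genes with a mean FPKM of at least 5, by Pearson's r of log2(FPKM + 1), given as a description of libraries that fall into 4 stages. Bcl2l14 was most like Tssk2, a testis serine kinase of spermatids (r = 0.9996), and 1700018C11Rik (r = 0.9993). Bax was most like Pdlim7 (r = 0.998) and Pdcd11 (r = 0.9975), Bid like Kif21a (r = 0.9995) and the peroxiredoxin Prdx1 (r = 0.9994), Bcl2l2 like Daam2 (r = 0.9993) and Nudt19 (r = 0.9992), and Bcl2l11 like Rab7 (r = 0.9987) and Mapk1ip1l (r = 0.9963). Mcl1 was most like Atp6v0e (r = 0.9972) and Vapa (r = 0.9946). The likeness was looser for Bcl2l1, with Ift52 (r = 0.987) and Ddx46 (r = 0.974), and for Bak1, with Zfp748 (r = 0.959) and Repin1 (r = 0.921).

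Other genes of the cell death pathway were grouped in lists by role, whose counts are to be read against the shares of all genes tested: 41.3% called lower and 24.4% higher at the first step, 21.6% and 4.22% at the second, and 16.7% and 17.7% at the third. Of 12 other genes on the effector and BH3-only list, 7 fell and 2 rose from priSG-A to plpSC (median -1.09). The list was drawn broadly and also holds Bcl2l12, Bcl2l13, Bcl2l15 and Becn1, so its counts are not of death-promoting genes alone. Bok, a further effector of the family, fell from 32.2 ± 1.78 to 3.09 ± 1.52 FPKM (SD, n = 2; limma adjusted p = 0.000201), with libraries at 31.0 and 33.5 against 2.02 and 4.17. Bad, a BH3-only protein held inactive by phosphorylation, rose from 5.74 ± 0.106 to 24.0 ± 12.2 (limma adjusted p = 0.00349). From plpSC to pacSC 3 of the 12 fell and 1 rose (median -0.18): Bok fell on to 0.551 ± 0.196 (limma adjusted p = 0.0188), and Bcl2l12 rose from 22.2 ± 5.17 to 59.3 ± 11.1 (limma adjusted p = 0.0158) and then fell to 16.0 ± 4.86 in rST (limma adjusted p = 0.00549). The second Bok fall lost its call under 5 of 15 alternatives (adjusted p up to 0.125), among them leaving out either pacSC library, and the Bcl2l12 rise under 3 (up to 0.176), among them leaving out pacSC replicate 1. The Bcl2l12 fall lost it without rST replicate 2 (limma adjusted p = 0.071, the highest of 15 alternatives).

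Of 17 genes of the apoptosome, caspases and mitochondrial death factors, 11 fell and 3 rose at the first step (median -1.20), and 7 fell and 1 rose at the second (median -0.43). The somatic cytochrome c gene Cycs fell from 81.3 ± 4.49 to 18.2 ± 5.94 FPKM (limma adjusted p = 0.000469), while the testis form Cyct rose from 33.0 ± 3.20 to 145 ± 53.1 (limma adjusted p = 0.00112) and to 336 ± 82.2 in pacSC (limma adjusted p = 0.028). Cyct then fell to 124 ± 3.00 in rST (limma adjusted p = 0.0129), 1 of 6 falls on this list at that step. The flavoprotein gene Aifm1 fell from 7.98 ± 3.75 to 1.68 ± 0.486 between plpSC and pacSC (limma adjusted p = 0.0133). The call of the Cyct rise in pacSC ended under 9 of 15 alternatives (adjusted p up to 0.181), and that of its fall in rST without pacSC replicate 1 or either rST library (up to 0.0971). The Aifm1 call ended without pacSC replicate 1 and with a weight per stage (up to 0.0795).

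All 7 tested genes of the death receptor pathway, of 10 listed, fell at the first step (median -1.20) and 4 fell at the second (median -0.82). Casp8, the caspase that cleaves Bid, fell from 9.03 ± 0.563 to 1.54 ± 0.556 FPKM (limma adjusted p = 0.000217). Cflar, which blocks Casp8, fell from 5.74 ± 2.46 to 1.84 ± 0.0662 between plpSC and pacSC (limma adjusted p = 0.0218), a call that ended under 8 of 15 alternatives (adjusted p up to 0.113). Of 5 tested inhibitors of apoptosis, of 9 listed, Birc5, also a subunit of the chromosomal passenger complex, rose from 32.2 ± 0.810 to 55.1 ± 18.1 at the first step (limma adjusted p = 0.0392), and Xiap, which inhibits caspases, fell from 8.50 ± 0.402 to 3.29 ± 2.26 (limma adjusted p = 0.0157) and to 0.628 ± 0.363 in pacSC (limma adjusted p = 0.0343). The Birc5 rise lost its call under 7 of 15 alternatives and the second Xiap fall under 12 (adjusted p up to 0.176 and 0.156). The first Xiap fall lost it under 3, among them leaving out either priSG-A library (up to 0.0674).

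Of 18 tested genes of the p53 axis and upstream regulators, of 21 listed, 11 fell and 3 rose at the first step (median -0.77), 7 fell at the second (median -0.59), and 2 rose and 1 fell at the third (median 0.08). Foxo3, a transcription factor that induces Bcl2l11 in other cells, fell from 25.7 ± 0.889 to 4.35 ± 0.854 FPKM (limma adjusted p = 0.000196), and Bag6, a chaperone gene, rose from 32.0 ± 4.31 to 75.2 ± 31.5 (limma adjusted p = 0.0128). Atm, the kinase of the DNA break response, fell from 12.7 ± 7.34 to 1.72 ± 0.0279 between plpSC and pacSC (limma adjusted p = 0.00971), with plpSC libraries at 7.50 and 17.9 FPKM. Into rST, the checkpoint kinase gene Chek1 rose from 1.53 ± 0.163 to 4.10 ± 0.149 (limma adjusted p = 0.0152) and Trp53inp1, a p53 target, fell from 6.52 ± 0.456 to 1.92 ± 0.00185 (limma adjusted p = 0.0121). Both of these calls were lost without pacSC replicate 1 or either rST library, with adjusted p up to 0.114 for Chek1 and 0.0928 for Trp53inp1. The Bag6 call was lost without priSG-A replicate 2 (limma adjusted p = 0.0944) and the Atm call with a weight per stage (limma adjusted p = 0.0668), each the highest of 15 alternatives. From priSG-A to rST, 53.6% of all genes tested fell, with an all-gene median of -0.76. Falls in this comparison were called for 8 of the 12 genes on the effector and BH3-only list and 13 of the 17 apoptosome and caspase genes. They were also called for 3 of the 5 inhibitors, 7 of the 7 death receptor genes and 12 of the 18 p53 axis genes. Rises were called for 2, 3, 0, 0 and 3 genes of these lists, in the same order, against 29.5% of all genes tested. The medians of all genes at the 3 steps were -0.35, -0.25 and -0.03.

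**Figure D5:**
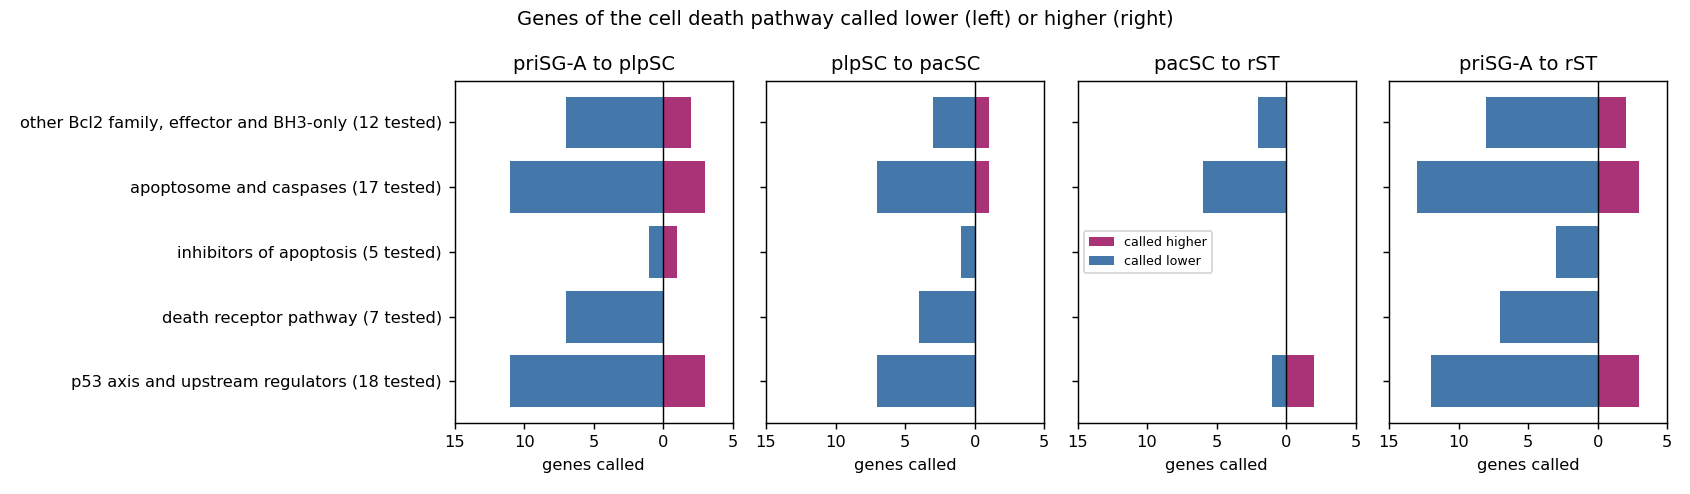
Number of genes of 5 cell death lists called lower (left of 0) or higher (right of 0) in each comparison, with the number tested beside each list. Falls outnumber rises at the first 2 steps in 4 of the lists, as they do among all genes tested (5823 against 3449 and 3050 against 596; after quantile normalization 1083 against 1243 at the second).

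Circular RNAs at the same loci were few in the cultured SSCs. The lists held 12266 and 25415 circRNAs (263855 and 560991 junction reads) in the RNase R libraries and 2601 and 3578 (21754 and 30400 junction reads) in the untreated ones, and 6 distinct circRNAs lay inside the 10 loci. Bid had 3 of them, all in RNase R libraries: an exonic one at chr6:120843257-120844310 with 11 junction reads in replicate 2, and 2 intronic ones that share the end 120845636, of which the one from 120844335 had 9 and 6 junction reads in replicates 1 and 2 and the one from 120844331 had 10 in replicate 2 (mm9). Bcl2l11 and Bbc3 had 1 exonic circRNA each in RNase R replicate 2, with 3 and 4 junction reads. Bax had 1 of the intron class, with 4 junction reads, in untreated replicate 2. Bcl2, Bcl2l1, Bcl2l2, Mcl1, Bcl2l14 and Bak1 had none listed. No difference between the treatments was tested on counts this small.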

How the data were processed

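Germ cell values were deposited as FPKM with confidence bounds, per the file headers, and circRNAs as counts of back-splice junction reads, per the file headers. Build mm9 and the tools BWA, Cuffdiff and TopHat2 (2.0.6) are named in the submitters' processing notes; the step each served, the annotation and the strand setting are not given in the sources used here, so antisense RNA may not be separable. Entries sharing a symbol were summed (469 repeated entries per file, no member among them). Loci are printed as the pacSC replicate 2 file gives them.

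Tests were run on log2(FPKM + 1) with limma 3.58.1 (R 4.3.3): 4 stage means, 8 libraries, 4 residual degrees of freedom, eBayes with trend, two-sided, adjusted over 14111 genes. The script was tested on simulated data in which each gene had the same SD in all stages. That test therefore does not cover a wider spread in plpSC. Python 3.11.15, pandas 2.3.3 and matplotlib 3.10.9 served for the rest. Named were all members, the 2 genes most like each tested member, and per pathway list the largest called rise and fall at each adjacent step. Members and lists were chosen with earlier results of these data known. Alternatives were another pseudocount, no filter, quantile normalization, median centring, a replicate block, a weight per stage, the 4 libraries compared alone, and leaving out each library. A circRNA belonged to a member when it lay wholly inside its locus. Confidence bounds and estimated fragments cover counting error only.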

Additional observations from a re-analysis of the deposited data

How the results depend on the processing

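Over 15 alternatives (14 for 2 results of Bcl2l11), the 32 member results gave 405 of 478 values with the same direction and side of the threshold; 40 lost and 17 gained a call, and 16 changed sign, each of a difference that was not called. Of 17 called results 10 kept direction and call throughout. Sign changes were Bak1 from priSG-A to plpSC (0.0080 with quantile normalization, 0.086 with centring; -0.31 to 0.12 without 1 library) and to rST (0.40 and 0.39), Mcl1 from plpSC to pacSC (0.060 and 0.39; -0.17 to 0.15), Bcl2l14 at that step (0.037 and 0.24; -1.31 to 0.97), Bax from pacSC to rST (-0.23 to 0.10) and Bcl2l1 from priSG-A to rST (-0.059 to 0.23). Without 1 library, members called higher ranged from 1 to 2, 0 to 1 and 0 to 2 over the 3 steps, and members called lower from 4 to 5, 1 to 4 and 0 to 3. From plpSC to pacSC, 1 member was called lower with quantile normalization, with centring (and 1 higher) and with only the 4 libraries compared, and 0 with a weight per stage. From pacSC to rST, 2 were called higher with no filter, 2 lower with a weight per stage and 3 lower with only the 4 libraries. From priSG-A to rST, 2 were called higher with centring. Over all genes from plpSC to pacSC, 596 higher and 3050 lower became 1243 and 1083 (quantile), 1357 and 1239 (centring), 0 and 1 (weight per stage, where plpSC had a weight of 0.19), 97 and 881 (4 libraries) and 216 to 2077 and 688 to 5173 without 1 library. From pacSC to rST, 2495 and 2361 became 0 to 3607 and 1 to 3750 without 1 library, and at the first step the 5823 lower became 3215 to 6728. The F test called 5 to 8 members without 1 library. A lone library left in a stage is assumed to vary like the others. Deviations of same-numbered libraries correlated between -0.31 and 0.38 over the 6 pairs of stages. With 2 libraries in each stage, such correlations cannot tell whether libraries of the same number were paired. With the replicate block 5 members fell and 1 rose from priSG-A to plpSC and from priSG-A to rST, 3 fell from plpSC to pacSC and 1 rose from pacSC to rST. Of 20 named pathway results 6 kept their call throughout and none changed sign. The cause of these shifts was not tested. The pacSC levels of Bcl2 and Bbc3 are limited by depth, at an estimated 2.8 and 8.5 fragments for Bcl2 and 4 and 14 for Bbc3. In priSG-A these were 86.2 and 112 for Bcl2 and 62 and 68 for Bbc3.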
